A study of Mus musculus with 6 samples.

Results

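The DEAD and DEAH box RNA helicases were examined in 3 arrays of spermatogonial stem cells and 3 arrays of total testicular cells of the mouse. Members were chosen by gene symbol, as every probe set annotated to 1 gene whose symbol is Ddx or Dhx followed by a digit. This gave 80 of the 22626 probe sets tested and 39 of the 12393 named genes, 28 of them Ddx and 11 Dhx. Each sample was hybridised to 1 Affymetrix Mouse430A_2 array, where a probe set, a group of short probes, gives the level of a transcript, here on the log2 scale. Both groups came from CD4HAglo transgenic mice, which carry a surface marker with domains of the human CD4 protein driven by part of the promoter of the germ cell gene Stra8. The stem cell arrays hold cells that magnetic beads took out by that marker, with 50 males pooled for each preparation. For the other group the title names total testicular cells and the source says the cells lacked the marker, so these labels disagree. The ages of the mice were not given in the sources used here, and nothing in the labels ties an array to a separate set of animals beyond its replicate number, so the p-values measure the spread between these samples.

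DEAD and DEAH box proteins are named after the amino acid letters of a motif with which they bind and split ATP. They use that energy to unwind short RNA duplexes or to strip proteins from RNA, and they act at nearly every step in the life of a transcript, from splicing and export to translation and decay, and in the assembly of ribosomes. In the testis the family is known for Ddx4, the mouse vasa homologue of germ cells, which acts in the piRNA pathway, and for Ddx25, a helicase needed to complete sperm formation.

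Array medians over all probe sets lay between 3.25 and 3.44, and 71.3% to 75.0% of the probe sets on an array exceeded a background of 2.37, a level under which 95% of the readings of 27 bacterial control probe sets lay. Stem cell array 1 stood apart, with a mean of 8.96 on the hybridization controls against 8.37 to 8.51 on the other 5. Of 16 measured macrophage markers 15 rose and 0 fell, and their mean level was 3.44 to 3.91 in total testicular cells and 8.52, 6.91 and 6.71 on stem cell arrays 1, 2 and 3. The mean of 5 Leydig cell markers was 5.17 to 6.23 and 6.50 to 8.71 in the same order of groups, and 0 of 5 passed by limma. At p under 0.05 before adjustment 5 were higher. Of all genes 11.8% were higher and 13.1% lower at that p. Of 9 Sertoli cell markers 1 rose (Clu, by 2.02, adjusted p = 0.0234), with means of 4.05 to 4.23 and 4.49 to 4.66. At p under 0.05 before adjustment 2 were higher and 0 lower, Clu and Inha (1.10, limma adjusted p = 0.0590). Of 8 markers of meiotic spermatocytes 0 passed by limma, 1 was higher and 2 lower before adjustment, with means of 7.78 to 7.86 and 7.40 to 7.77. Markers of undifferentiated spermatogonia, the labelled cell type, had means of 3.10 to 3.22 and 3.03 to 3.22, and 0 of 10 passed by limma, with 1 higher and 1 lower at p under 0.05 before adjustment. Their median level in total testicular cells was 2.64, near the background, and 3 of the 10 lay under it there. Id4, at a mean of 7.72 over the 6 arrays, raised the average of the list. A change in such dim probe sets would be hard to see. The 8 spermatid markers averaged 11.51 to 11.90 and 11.42 to 11.86, and 0 passed by limma or at that p. In such bulk samples, fewer cells of a type and less RNA per cell cannot be told apart.

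Ddx3x rose in the stem cell arrays. Ddx60 did not pass, and its difference is only bounded because its total testicular cell values lay under background. Its stem cell mean lay 1.64 above background on the log2 scale, a value that leaves out the spread between the stem cell arrays. Otherwise, most of the family had slightly negative differences. At the threshold used, an adjusted p of 0.05 over all probe sets (limma with Benjamini-Hochberg adjustment), 1 of 39 members rose and 0 fell, beside 1.63% of all genes that rose and 0.137% that fell (1.77% in either direction). At an unadjusted p under 0.05, 2 members were higher and 22 lower, against 11.8% and 13.1% of all genes. All 3 stem cell arrays lay below all 3 total testicular cell arrays for 23 of 39 members (19.2% of all genes) and above them for 3 (13.8% of all genes). The median log2 difference, stem cells minus total testicular cells, was -0.39 over the members and -0.05 over all genes, and 34 members had a negative difference (57% of all genes). The member genes were represented by their probe set with the highest mean, and all of these means lay above background.

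The sequences just upstream of 3 gene starts are shown because these genes gave the largest differences among members (Ddx60 and Ddx3x) and the autosomal counterpart of one of them (D1Pas1). They are the 250 bases before the annotated start, from RefSeq on GRCm38.p6, written 5′ to 3′ on the gene's strand. Capitals mark matches to any of the motifs searched on both strands: the core of an interferon response element (GAAANNGAA), a PU.1 site (GAGGAAG), an ETS site (CCGGAAG), a cyclic AMP response element (TGACGTCA), a TATA box (TATAAA) and a GC box (GGGCGG). No match in these windows overlapped another.
Ddx60, chr8:61927837-61928086, + strand: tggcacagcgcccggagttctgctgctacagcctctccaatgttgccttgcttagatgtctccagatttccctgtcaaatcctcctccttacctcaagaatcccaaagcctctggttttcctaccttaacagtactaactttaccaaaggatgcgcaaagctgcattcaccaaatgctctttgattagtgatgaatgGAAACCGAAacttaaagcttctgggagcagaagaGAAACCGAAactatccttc
Ddx3x, chrX:13280772-13281021, + strand: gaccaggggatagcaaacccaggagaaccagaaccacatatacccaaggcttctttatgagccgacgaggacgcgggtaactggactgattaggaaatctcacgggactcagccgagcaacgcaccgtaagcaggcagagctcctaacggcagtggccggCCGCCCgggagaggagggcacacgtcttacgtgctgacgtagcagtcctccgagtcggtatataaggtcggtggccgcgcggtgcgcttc
D1Pas1, chr1:186967166-186967415, + strand: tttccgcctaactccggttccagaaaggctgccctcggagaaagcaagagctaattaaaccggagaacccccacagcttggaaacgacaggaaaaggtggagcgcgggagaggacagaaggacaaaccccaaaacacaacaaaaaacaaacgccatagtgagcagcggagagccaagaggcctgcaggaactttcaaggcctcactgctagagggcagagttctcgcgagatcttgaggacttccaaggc
The Ddx60 window held 2 matches to GAAANNGAA, which begin 53 and 19 bases before the start. Of 45 windows of 35 member genes, 7 held at least 1 such match (15.6%, against 7.13% of all 32851 windows), and that of Ddx60 was the 1 with 2 or more (0.469% of all windows). The Ddx3x window held 1 GC box, which 51.1% of member windows and 32.7% of all windows held, and the D1Pas1 window held none of these motifs. The member windows were rich in the dinucleotide CG: its observed count was a median of 0.87 of that expected from base composition, against 0.37 for all windows. Ddx60 had 0.40, Ddx3x 0.98 and D1Pas1 0.61. ETS matches stood in 28.9% of member windows (6.91% of all), cyclic AMP element matches in 8.89% (1.55%), TATA box matches in 6.67% (12.4%) and PU.1 matches in 4.44% (10.6%). These are letter matches only, 4 members had no window, and several windows of a gene can overlap.

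Ddx3x, the X-linked helicase that promotes the translation of structured messages, was the member that rose. Its probe set with the highest mean read 7.54, 6.40 and 6.14 on stem cell arrays 1, 2 and 3 against 4.87, 5.05 and 4.72 on the total testicular ones. Every stem cell value lay more than 1 log2 unit above every other value. The means were 6.69 ± 0.74 and 4.88 ± 0.17 (SD, n = 3 each), and the log2 difference was 1.81 with an SE of 0.33, or 3.51-fold, with a limma adjusted p = 0.0396 and a 95% interval from 1.08 to 2.55. A further pair of Ddx3x probe sets differed by 1.04 (adjusted p = 0.0979) and 1.67 (adjusted p = 0.104), without passing, and in both the groups did not overlap. The one with 1.67 carries a suffix that Affymetrix gives to probes matching several related transcripts. The difference was 2.75 within fluidics round 1 (stem cell array 1 against total testicular cell arrays 1 and 3) and 1.34 within round 3 (array 2 of each group). These rounds were inferred from run start times. Without stem cell array 1 it was 1.39 (adjusted p = 0.00383). The call was lost without total testicular cell array 1, 2 or 3 (differences 1.81, 1.90 and 1.73, adjusted p = 0.202, 0.123 and 0.194), without the intensity trend (adjusted p = 0.0581) and with the mean of the gene's probe sets (1.51, adjusted p = 0.0778).

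D1Pas1, an autosomal DEAD box gene closely related to Ddx3x and known for its expression in spermatogenic cells, had negative differences that did not pass. It carries another kind of symbol and is no member, and it was chosen after its values were seen. Its brighter probe set read 7.50, 8.12 and 7.91 in stem cells and 8.45, 8.24 and 8.61 in the other group, with no overlap. The log2 difference was -0.59 (SE 0.19, adjusted p = 0.117 by limma). For its other probe set, which also did not overlap between groups, it was -0.80 (SE 0.20, adjusted p = 0.0777 by limma). Ddx3y, the Y-linked relative, was not analysed here.

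**Figure D1:**
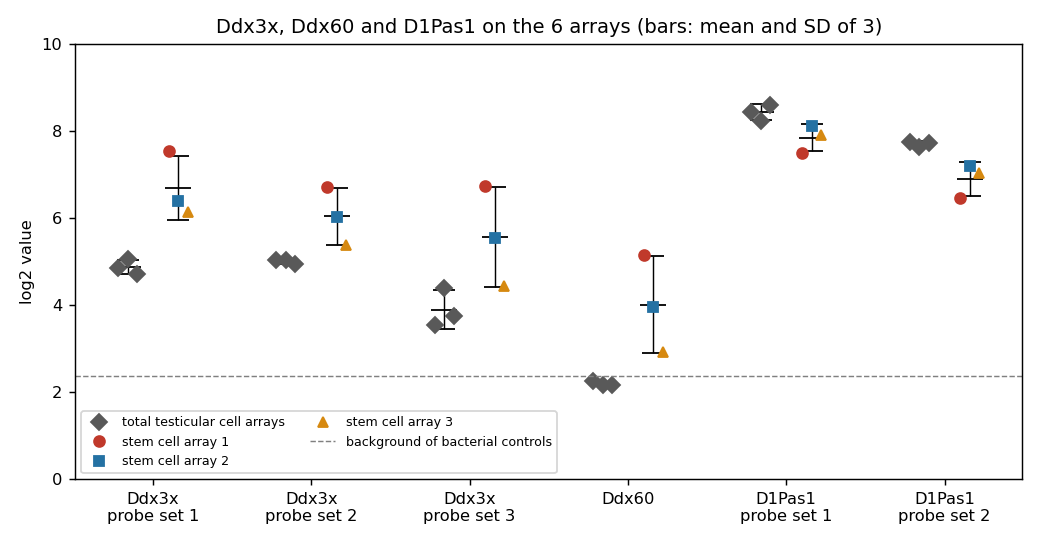
Log2 values (vertical axis) of the 3 probe sets of Ddx3x, the 1 of Ddx60 and the 2 of D1Pas1, ordered within a gene by mean. Diamonds are the 3 total testicular cell arrays and coloured symbols the 3 stem cell arrays, with the mean and SD of each group as bars and the background of 2.37 as a dashed line. All stem cell values of Ddx3x and Ddx60 lie above the others, highest on array 1, and those of D1Pas1 lie below.

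Among the helicases of the antiviral response, Ddx60 had a positive difference and Dhx58 a negative one, and neither passed the threshold. Ddx60, an interferon-induced gene that aids the sensing of viral RNA and whose upstream window held the paired interferon motif above, read 5.15, 3.96 and 2.92 on the stem cell arrays. On the total testicular cell arrays it read 2.25, 2.17 and 2.17, all under background, so its level there is only bounded. The measured log2 difference was 1.81 (SE 0.45, adjusted p = 0.0760 by limma). The stem cell mean lay 3.12-fold above the background, a point value that leaves out the spread between the stem cell arrays (SD 1.11). The difference was 2.94 within fluidics round 1 and 1.79 within round 3. It passed with the round as a block (2.45, adjusted p = 0.00563), a fit in which stem cell array 3, alone in its round, adds nothing, and without that array (2.36, adjusted p = 0.00471). Without stem cell array 1 it was 1.25 (adjusted p = 0.0611).

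Dhx58 encodes LGP2, a relative of RIG-I without signalling domains. It read 5.48, 6.37 and 5.93 in stem cells and 6.69, 6.36 and 6.67 in the other group, and stem cell array 2 lay within the range of the others. The log2 difference was -0.65 (SE 0.23, adjusted p = 0.150 by limma), and its other probe sets gave -1.12 and 0.28, the last of them under background on all arrays. Without stem cell array 2 the Dhx58 difference passed (-0.87, adjusted p = 0.0476), in a fit with 527 lower genes in all against 17 as deposited. Without stem cell array 1 the Dhx58 difference was -0.42 and did not pass. Ddx58, the gene of RIG-I itself, was not analysed here. Of 8 measured partners in the RIG-I pathway 0 passed by limma, and their median log2 difference was 0.54. At p under 0.05 before adjustment 6 of these partners were higher and 1 lower (11.8% and 13.1% of all genes). The ligase Trim25 differed by 1.20 (limma adjusted p = 0.0952), and its 3 probe sets ranged from 0.18 to 1.20. The interferon-induced Ifit3 differed by 1.19 (limma adjusted p = 0.109) and the transcription factor Irf3 by -0.58 (limma adjusted p = 0.168). Ifih1, the gene of the RNA sensor MDA5, read 3.95, 3.62 and 3.05 against 3.02, 2.69 and 2.62, with a log2 difference of 0.76 (SE 0.24, adjusted p = 0.118 by limma). It passed with the round as a block (1.04, adjusted p = 0.0279) and without stem cell array 3 (1.01, adjusted p = 0.0203). On stem cell arrays 1, 2 and 3 the macrophage markers lay a median of 5.48, 3.92 and 3.52 above the averaged total testicular cell values, Ddx3x 2.66, 1.52 and 1.26, and Ddx60 2.95, 1.76 and 0.73. The Leydig cell markers lay a median of 2.91, 1.86 and 0.82 above on these arrays. The medians of both marker lists thus had the same order of the stem cell arrays as both helicases. The single macrophage markers Adgre1, Cd163 and Ptprc stood higher on array 3 than on array 2. Ddx39b and Ifih1 also had the order of the 2 helicases, and the share of all genes with it was not counted. The part of macrophage or Leydig cell transcripts in the Ddx3x and Ddx60 differences was not tested.

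The germ cell helicases Ddx4 and Ddx25 were detected far above background on all arrays and neither passed the threshold. Ddx4 read 8.69, 8.74 and 8.72 against 8.89, 8.99 and 8.80, which is a log2 difference of -0.17 (SE 0.12, adjusted p = 0.406 by limma, 95% interval from -0.44 to 0.10). The groups did not overlap, but the interval includes 0. Ddx25 read 9.86, 10.33 and 9.99 against 10.51, 10.48 and 10.39, again without overlap. Its log2 difference was -0.40 (SE 0.13, adjusted p = 0.130 by limma, 95% interval from -0.70 to -0.10). The Ddx25 difference passed without stem cell array 2 (-0.53, adjusted p = 0.0365), where 527 genes in all were lower against 17 as deposited. Without stem cell array 1 it was -0.30 and did not pass. Ddx25 is known in Leydig cells as well as in germ cells, and the 5 Leydig cell markers had positive differences, from 1.47 to 1.98. Among 6 measured partners of Ddx4 in the chromatoid body and the piRNA pathway, 0 passed by limma, and the median log2 difference was -0.38. At p under 0.05 before adjustment 3 were lower and 0 higher (13.1% and 11.8% of all genes). The partners include the tudor gene Tdrd1 (-1.09, limma adjusted p = 0.123) and the PIWI gene Piwil1 (-0.77, limma adjusted p = 0.152). Dazl, a germ cell RNA-binding protein gene, differed by 0.45 (limma adjusted p = 0.222).

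**Figure D2:**
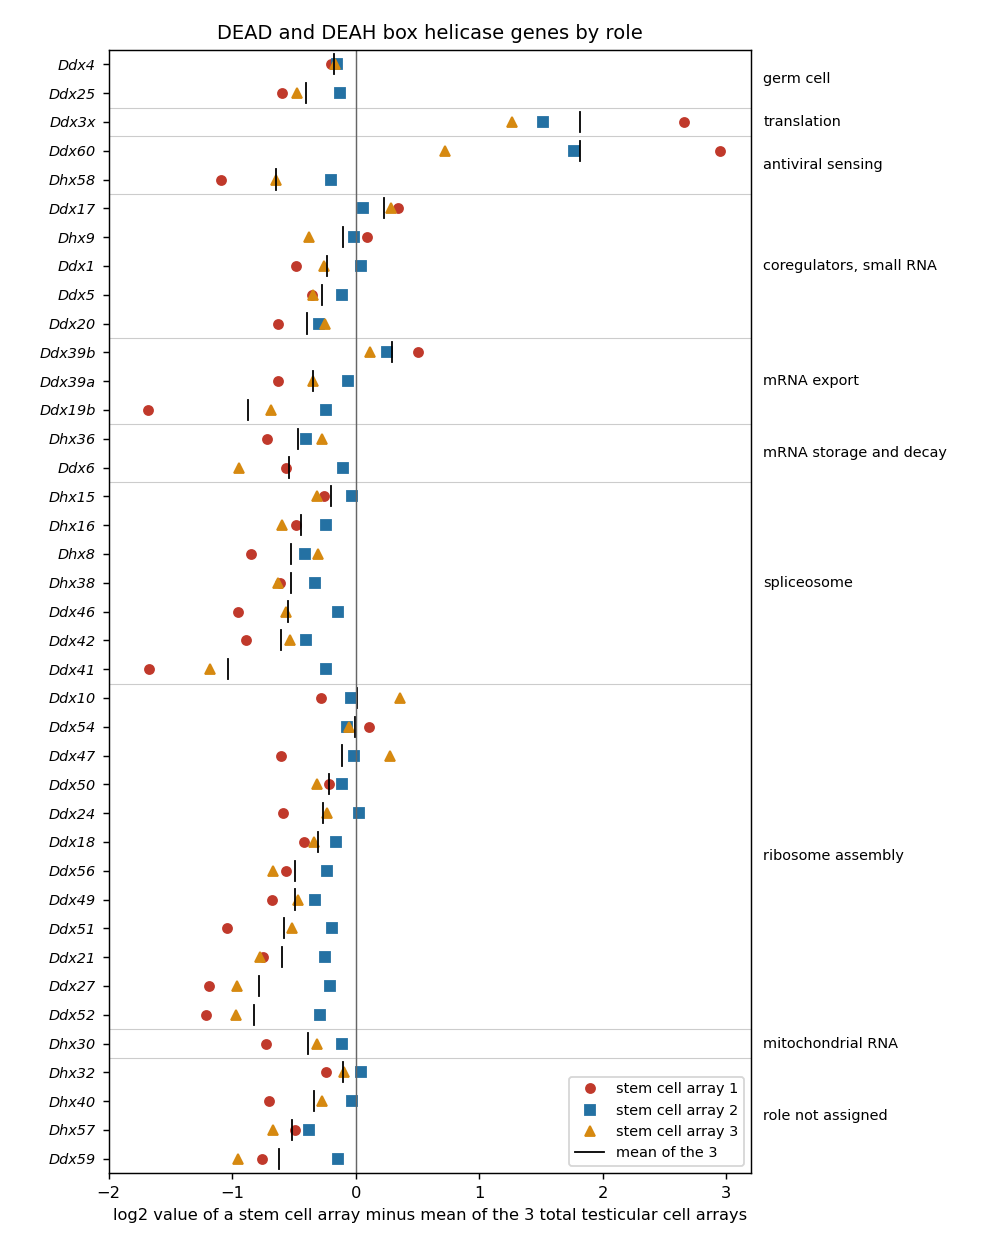
Log2 value of each stem cell array minus the average of the 3 total testicular cell arrays (horizontal axis) for the 39 helicase genes, grouped by role. Symbols are the 3 stem cell arrays and the vertical mark is their mean. Most genes lie left of 0, with array 2 closest to 0, and Ddx3x and Ddx60 lie far to the right on array 1.

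None of the spliceosomal helicases passed the threshold by limma. These enzymes drive the rearrangements of the spliceosome during each splicing reaction. All 7 measured had a negative log2 difference (57% of all genes), 6 were lower at p under 0.05 before adjustment (13.1% of all genes), and in 6 all stem cell values lay below the others (19.2% of all genes). Their median difference was -0.53, and on stem cell arrays 1, 2 and 3 it was -0.85, -0.24 and -0.56. Ddx41, which also serves as a DNA sensor, had the largest decrease in value of any member. It read 4.32, 5.75 and 4.81 in stem cells and 6.005, 5.91 and 6.06 in the other group, which is a log2 difference of -1.03 (SE 0.32, adjusted p = 0.113 by limma). Within fluidics round 3 the difference was -0.16, and within round 1 the difference was -1.71. Without stem cell array 2 the Ddx41 difference was -1.43 and passed (adjusted p = 0.0214), in a fit with 527 lower genes in all against 17 as deposited. Without stem cell array 1 the Ddx41 difference was -0.71 and did not pass. Ddx46, the mouse Prp5 that acts on U2 snRNP, was measured by 3 probe sets that ran alike, at -0.55, -0.82 and -0.82, with the smallest limma adjusted p = 0.0936. Ddx42, a relative of Ddx46 found with the SF3b complex, differed by -0.61 (adjusted p = 0.126). Dhx38, Dhx8 and Dhx16, the mouse Prp16, Prp22 and Prp2, differed by -0.53, -0.52 and -0.44, and Dhx15, the disassembly factor Prp43, by -0.20.

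Helicases of ribosome assembly, which remodel precursor rRNA in the nucleolus, formed the largest role. Of 12 measured, 0 passed by limma and 11 had a negative log2 difference, against 57% of all genes. At p under 0.05 before adjustment 6 were lower (13.1% of all genes), and in 8 all stem cell values lay below the others (19.2% of all genes). The median was -0.40. Ddx52 read 4.35, 5.28 and 4.59 against 5.58, 5.49 and 5.62, a log2 difference of -0.82 (SE 0.24, adjusted p = 0.104 by limma), and its other probe set gave -0.11. Ddx27 read 4.05, 5.03 and 4.27 against 5.14, 5.26 and 5.30, a difference of -0.79 (SE 0.25, adjusted p = 0.124 by limma), and its other probe set lay under background. Ddx21, a nucleolar helicase that also contacts RNA polymerases, read 4.95, 5.45 and 4.92 against 5.81, 5.64 and 5.65. Its difference was -0.59 (SE 0.19, adjusted p = 0.126 by limma), against 0.11 for its other probe set. Ddx51, which acts on the large subunit rRNA, differed by -0.58 (adjusted p = 0.167). In each of these 4 genes stem cell array 2 lay nearest to the total testicular cell arrays, and without it Ddx52, Ddx27 and Ddx21 passed (adjusted p = 0.0252, 0.0271 and 0.0393). That fit gave 527 lower genes in all, against 17 as deposited. Without stem cell array 1 the differences of these 3 genes were -0.63, -0.58 and -0.51, and none passed. Ddx54 and Ddx10 differed by -0.0058 and 0.013, signs that other scalings turn: Ddx54 was positive after quantile normalization, and Ddx10 was negative after centring on the array medians or on the hybridization controls.

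None of the 3 helicases of mRNA export passed the threshold. These proteins load export factors onto messages or release them at the nuclear pore. Ddx19b, of the DBP5 type that acts at the pore, read 5.01, 6.45 and 6.01 in stem cells and 6.68, 6.78 and 6.61 in the other group. Its log2 difference was -0.87 (SE 0.32, adjusted p = 0.152 by limma), with -0.66 and -0.97 for its other probe sets, so that all 3 ran the same way. Ddx39a read 7.76, 8.33 and 8.05 against 8.30, 8.51 and 8.37 with an overlap between groups and a difference of -0.34 (adjusted p = 0.248), and its 5 probe sets ranged from -0.34 to 0.06. Ddx39b, the UAP56 of the TREX complex and a near twin of Ddx39a, was the third member whose stem cell values all lay above. It read 7.66, 7.40 and 7.27 against 7.24, 7.16 and 7.05, a log2 difference of 0.29 (SE 0.16, adjusted p = 0.294 by limma, 95% interval from -0.07 to 0.65), so the difference did not pass. A second Ddx39b probe set gave 0.24 and the third lay under background.

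Transcription coregulators and factors of small RNA processing did not pass on any probe set. Ddx5, the p68 coregulator that joins the microprocessor, read 10.55, 10.79 and 10.55 against 10.88, 10.96 and 10.85, a log2 difference of -0.27 (SE 0.10, adjusted p = 0.167 by limma). Its 6 probe sets disagreed, from -0.27 to 0.58, and their mean turned the sign (0.090, adjusted p = 0.684). Ddx17, its p72 partner, differed by 0.23 (adjusted p = 0.392), with -0.02 and -0.49 for its other probe sets and -0.092 for the mean of the 3. Ddx20, the Gemin3 of the SMN complex that assembles spliceosomal snRNPs, read 8.40, 8.73 and 8.78 against 9.06, 8.92 and 9.10. That is a log2 difference of -0.39 (SE 0.14, adjusted p = 0.150 by limma) with no overlap. Ddx1, a helicase of tRNA ligation, differed by -0.23 (adjusted p = 0.374). Dhx9, RNA helicase A, differed by -0.10 (adjusted p = 0.764) on the main probe set and by -0.84 on another. That main probe set carries the suffix for probes matching several related transcripts, as do those of Dhx38 and Dhx57. Of 5 measured partners in the SMN complex 0 passed by limma. At p under 0.05 before adjustment 1 was lower (13.1% of all genes), Smn1 (-0.42, limma adjusted p = 0.191). Of 4 in the microprocessor pathway 0 passed by limma or at that p, with Dgcr8 at -0.50 (adjusted p = 0.273).

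In mRNA storage and decay, Ddx6, the p54 of P-bodies that represses translation, read 5.93, 6.39 and 5.55 against 6.48, 6.36 and 6.64. Stem cell array 2 overlapped with the others, and the log2 difference was -0.54 (SE 0.22, adjusted p = 0.188 by limma). Dhx36, which resolves G-quadruplexes, read 5.82, 6.14 and 6.27 against 6.53, 6.40 and 6.70, with a difference of -0.46 (SE 0.18, adjusted p = 0.168 by limma) and -0.75 for its second probe set. Of 6 measured P-body partners 0 passed by limma and 2 were lower at p under 0.05 before adjustment (13.1% of all genes). They were the exonuclease Xrn1 (-0.66, limma adjusted p = 0.0645) and the decapping scaffold Edc4 (-0.56, limma adjusted p = 0.114). Dhx30, of mitochondrial RNA, differed by -0.39 (adjusted p = 0.203), and its 4 probe sets ranged from -0.39 to -0.07. Ddx59, to which no role was assigned here, read 3.60, 4.22 and 3.41 against 4.44, 4.26 and 4.37, a log2 difference of -0.62 (SE 0.23, adjusted p = 0.157 by limma). The Ddx59 difference passed without stem cell array 2 (adjusted p = 0.0389), where 527 genes in all were lower against 17 as deposited. Without stem cell array 1 it was -0.55 and did not pass. The 3 others without a role, Dhx32, Dhx40 and Dhx57, differed by -0.10, -0.33 and -0.51.

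Helicases that carry other symbols served as a comparison. Of 16 measured, 0 passed by limma, and their median log2 difference was -0.13. At p under 0.05 before adjustment 1 was higher and 2 lower (11.8% and 13.1% of all genes). The 2 lower ones were Skiv2l, of the cytoplasmic Ski complex (-0.75, adjusted p = 0.168), and Upf1, of nonsense-mediated decay (-0.67, adjusted p = 0.161). Eif4a1, the DEAD box helicase of the cap-binding complex, read 8.66, 8.84 and 8.21 against 8.46, 8.57 and 8.38. Its difference was 0.10 (SE 0.17, adjusted p = 0.762 by limma), with 0.27 and 0.44 for its other probe sets, and it turned negative after centring on the array medians (-0.010) or the hybridization controls (-0.064). Eif4a2 differed by 0.15 (adjusted p = 0.552), and by -0.016 after centring on the hybridization controls.

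The size of the members' differences varied between the stem cell arrays. Set against the averaged total testicular cell values, the median over all 39 was -0.59, -0.14 and -0.34 for stem cell arrays 1, 2 and 3, against -0.09, -0.06 and 0.00 over all genes. In the 23 members whose stem cell values all lay below, array 1 was the lowest of the 3 in 16 and array 3 in 7, and array 2 was the nearest to the other group in 20. Within fluidics round 1, 33 of 39 members were negative (median -0.60), and within round 3, 31 were (median -0.16); round 2 held stem cell array 3 alone. Without stem cell array 2, 8 members fell and 1 rose: Ddx21, Ddx25, Ddx27, Ddx41, Ddx46, Ddx52, Ddx59 and Dhx58 were lower and Ddx3x higher. In that fit 527 genes in all were lower and 414 higher. Without stem cell array 1, 0 members were lower and only Ddx3x higher, with 22 genes lower and 324 higher over all. Centring on the hybridization controls moved the median of all genes from -0.05 to -0.22 and left 4 members lower (Ddx19b, Ddx27, Ddx41 and Ddx52) and 2 higher (Ddx3x and Ddx60), with 516 genes higher and 221 lower over all, against 202 and 17 as deposited. Centring on the array medians moved it to -0.16. Both centrings subtract a constant from each array, so they cannot change the gap between the members' median and that of all genes (-0.34). Other settings did change it: the gap was -0.26 after quantile normalization, -0.24 without stem cell array 1 and -0.46 without stem cell array 2.

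Genes with brighter probe sets mostly had negative differences whatever their family, so the members are set beside genes of like signal. Between mean log2 values of 6 and 8, 76.8% of 2107 genes had a negative difference, as did 14 of 16 members there. Above 8 these were 81.1% of 1120 genes and 9 of 9 members, and between 4 and 6 they were 60.6% of 2830 genes and 10 of 12 members. Medians in these bins were, from 4 to 6, -0.14 for all genes and -0.56 for members, then -0.27 and -0.45, then -0.19 and -0.33. Groups with all stem cell values below were 26.6%, 38.3% and 28.1% of genes in these bins, against 8 of 12, 9 of 16 and 5 of 9 members. The remaining 2 members, Ddx60 and Dhx57, lay between background and 4. The bins describe signal and do not rank transcripts, since probe sets differ in how they bind.

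**Figure D3:**
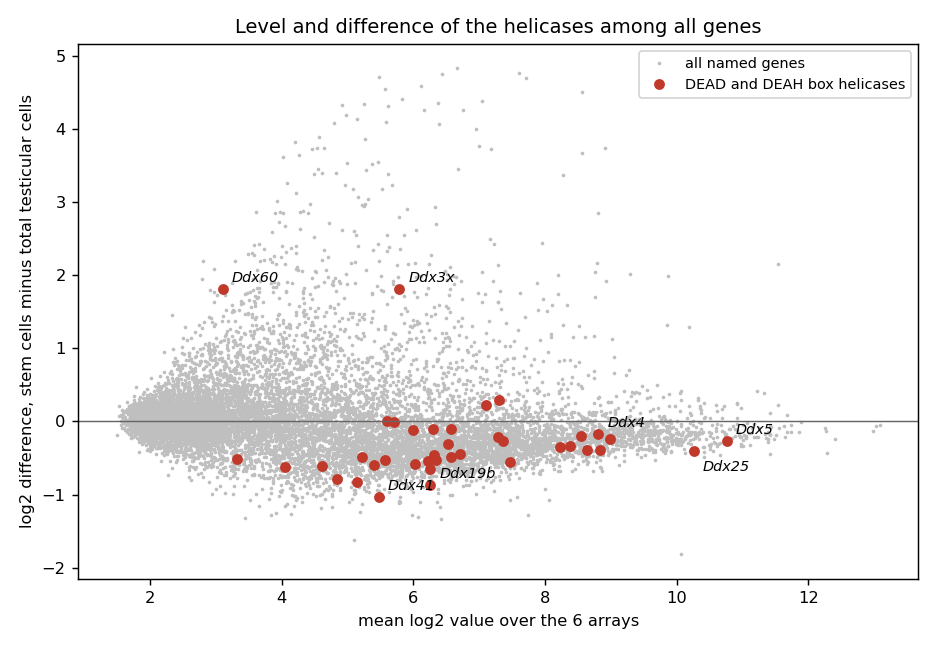
Mean log2 value over the 6 arrays (horizontal axis) against the log2 difference, stem cells minus total testicular cells (vertical axis), for all 12393 named genes in grey and the 39 helicases in red. Most helicases form a band just below 0, and Ddx3x and Ddx60 stand at 1.81.

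Probe sets of a gene often disagreed in size. Of the 22 members with several probe sets, 12 had only negative log2 differences, 1 only positive ones (Ddx3x) and 9 both signs, and the median spread within a gene was 0.40. Over all 80 probe sets 64 were negative and 16 positive, with a median of -0.22, 1 rose and 0 fell at the adjusted threshold of limma (1.4% and 0.15% of all probe sets), and 7 lay under background on all arrays. The genes with both signs include Ddx5, Ddx17 and Ddx21, so their values depend on the probe set. In Ddx18, Ddx39a, Ddx39b, Dhx9 and Dhx58 the odd sign came only from a probe set under background on all arrays.

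**Figure D4:**
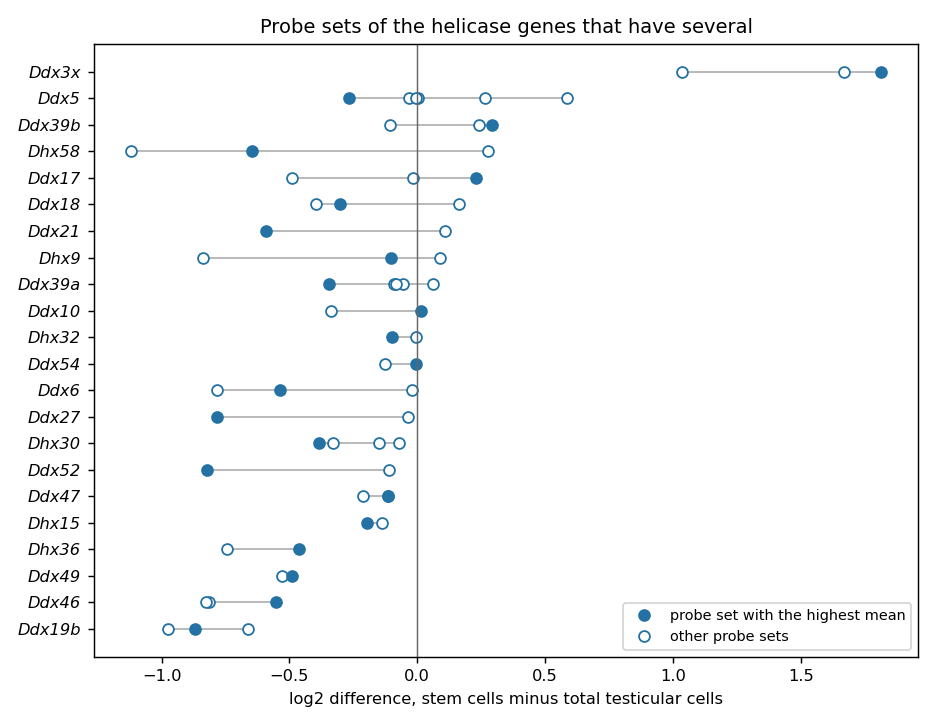
Log2 difference, stem cells minus total testicular cells (horizontal axis), of each probe set of the 22 helicase genes that have several. Filled points are the probe sets with the highest mean and open points the others. The 3 of Ddx3x lie between 1.04 and 1.81, and the 6 of Ddx5 lie on both sides of 0.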

How the data were processed

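Total RNA from the 3 stem cell and the 3 total testicular cell samples, grouped by title, was biotin-labelled for 1 array per sample, per the labels' protocols. The authors deposited 1 value per probe set, and the range of 1.20 to 13.2 marks a log2 scale. MAS5 and RMA appear in the submitters' processing notes without a role, and the step that gave the values is not stated in the sources used here. The values were used as deposited. Of 22690 probe sets, 64 controls were left out. A single gene was annotated to 20380 of the rest, several to 691 (not used by name) and no gene to 1555. All 39 member genes were found in the RefSeq table by gene identifier. A gene was represented by whichever of its probe sets had the highest mean.

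Groups were compared in a two-sided moderated test (limma 3.58.1, R 4.3.3; eBayes with trend, residual df 4, prior df 5.21), and p-values were adjusted by Benjamini-Hochberg over all 22626 probe sets. The procedure was tested on simulated data. Fluidics rounds came from run starts in the file headers, those less than 15 minutes apart counted as 1. Alternatives were quantile normalization, centring on array medians, leaving out dim probe sets, blocks for replicate number and round, no trend, a robust prior, array weights, each array left out, a stricter threshold and the mean of a gene's probe sets; centring on hybridization controls was added after seeing the data. Members, lists and motifs were chosen with earlier results of these data known. Members named in full are any past the threshold and the 8 largest differences each way among those without overlap (3 upward). A fixed set of germ cell, antiviral, coregulator, export, decay and splicing helicases was added to these. Some other members are given by value alone. Ddx18, Ddx24, Ddx47, Ddx49, Ddx50 and Ddx56 enter only the counts, medians and figures. Ddx3y, Ddx19a, Ddx58, Eif4a3 and Tdrd9 were not analysed here. Arrays have no read depth: signal over background and the number of arrays limit the precision.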

Additional observations from a re-analysis of the deposited data

How the results depend on the processing

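The members' median was negative under all 17 alternatives, and 33 to 35 of 39 members were negative in each. Several of these could not change it. The replicate block, no trend, the robust prior, the stricter threshold and leaving out dim probe sets keep the members' differences (median -0.39, 34 negative). Under the other alternatives the median ranged from -0.56 (centring on hybridization controls) to -0.27 (without stem cell array 1). Calls at the threshold moved more. With the replicate number as a block, 644 genes were higher and 93 lower over all, and 2 helicases, Ddx3x and Ddx60, were higher. Deviations from the group means correlated at -0.01, 0.01 and 0.30 between same-numbered arrays. The highest correlations with another number were 0.07, 0.30 and 0.04. With 3 arrays in a group these values cannot settle whether the numbers pair the samples. With the fluidics round as a block the counts of higher genes, lower genes and higher helicases were 719, 48 and 2 (Dhx9 turned to 0.029). With array weights they were 524, 79 and 2. Without the intensity trend they were 80, 2 and 0, at a threshold of 0.01 they were 40, 0 and 0, and with the mean of a gene's probe sets 97, 3 and 0 (Ddx5 turned to 0.090 and Ddx17 to -0.092). Median centring gave 46 lower genes (Eif4a1 turned to -0.010). Centring on hybridization controls, chosen after seeing the data, gave 516 higher and 221 lower genes with 2 helicases higher and 4 lower, and 70.0% of calls were higher, against 92.2% as deposited (Eif4a1 turned to -0.064 and Eif4a2 to -0.016). Leaving out 1 array gave 28 to 796 higher genes, 0 to 527 lower genes, 0 to 2 helicases higher and 0 to 8 lower; Dhx9 then ranged from -0.20 to 0.037 and Eif4a1 from -0.032 to 0.28. The causes were not tested.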
